A study of Gallus gallus with 48 samples.

Results

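Genes whose expression differed with altitude in the same direction in brain, heart, liver and lung were sought in 48 RNA-sequencing libraries of chickens. Expression was given as FPKM, a count of sequenced fragments scaled to the length of the transcript and to the size of the library. A gene was tested when it reached an FPKM of 1 in at least 3 libraries of every tissue, which 8720 of the 17108 genes did. Of these, 2071 genes (23.8%) had the same sign of the difference between 3300 m and 670 m in all 4 tissues, and they are called shared genes here. The shared genes comprised 642 that were higher at 3300 m (7.36% of the genes tested) and 1429 that were lower (16.4%). The sign came from the mean of log2(FPKM + 1) over the 6 libraries at each altitude in a tissue, so the common direction of a shared gene describes how it was chosen. A limma fit over all 48 libraries, with tissue and chicken type as blocks, then gave each gene 1 altitude difference and an adjusted p. At an adjusted p under 0.05, 20.2% of all genes tested passed, 5.31% of them higher and 14.9% lower at 3300 m. Among the shared genes 1246 passed, 340 higher and 906 lower. These counts were not read as support for each other, because the sign and the test used the same libraries. The filter ignored altitude, so a gene could meet it in a tissue through the libraries of a single altitude. The values of such a gene in that tissue are no support for its difference.

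Each tissue had 4 groups of 3 libraries. At 3300 m these were TC, Tibetan chickens, and HLC, lowland chickens. At 670 m they were LTC, Tibetan chickens, and LC, lowland chickens. The altitude and the tissue were given for every library, whereas the chicken type was read from the letters of the group code. No age, sex, feed or treatment was given, and altitude cannot be told apart from the place, housing or day of sampling. Whether the 3 libraries of a group were taken from different birds was not given, so the spread between them may be technical. The p-values of the 4-tissue fit rest on this spread and on any variation of the altitude or type difference between tissues. Variation of the altitude difference between chicken types enters them as well. Sequencing depth is unknown, since only FPKM were given. The FPKM of a library summed to between 452395 and 896066, and between 8498 and 11325 genes reached an FPKM of 1. A gene symbol was at hand for 682 of the genes tested (7.82%) and for 110 of the 1246 shared genes that passed (21 higher and 89 lower), so most shared genes are counted without a name. The symbols came only from the study's lists of genes under positive selection. Named genes, their ranks and the counts of gene lists are therefore no random sample of the genes tested.

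Air at high altitude holds less oxygen in each breath, and birds that live there are also exposed to cold and strong sunlight. In vertebrate cells low oxygen stabilises the HIF transcription factors, which switch on genes of red cell formation, glycolysis and vessel growth, while heat, cold and other insults induce chaperones and stress transcription factors. A difference shared by brain, heart, liver and lung is one that such unlike tissues have in common, and in bulk tissue fewer cells of a type cannot be told apart from less RNA per cell.

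The tissue labels were checked against marker genes. The summed FPKM of 7 neuron and glia markers was between 889 and 1440 in brain, that of 6 muscle markers between 2530 and 6987 in heart, and that of 4 hepatocyte markers between 3344 and 16190 in liver. The 8 lung epithelium markers summed to between 42.0 and 171 in lung. By altitude, the sums at 3300 m and 670 m were 948 to 1440 and 889 to 1310 in brain, and 2530 to 6987 and 3150.5 to 4709 in heart. In liver they were 3871.5 to 16190 and 3344 to 4887. Neuron and glia markers in lung summed to 10.8 to 22.3 at 3300 m and 20.3 to 65.5 at 670 m. All these pairs of ranges overlapped, and the tissue make-up at the 2 altitudes was not tested. One lung library at 3300 m, HLC 3, held muscle markers at 71.2 FPKM, against 1.29 to 5.03 in the other 5 lung libraries at 3300 m and 1.60 to 3.21 in those at 670 m. Of the heart libraries, TC 2, HLC 3 and LC 3 stood apart, with correlations of 0.94, 0.96 and 0.962 with the mean of the other hearts, against 0.976 to 0.986 for the others. Without these 3 heart libraries the shared genes that passed numbered 486 higher and 1476 lower, against 340 and 906 with them.

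The shared genes with the largest increase that carried a symbol were *ATF3*, *SLC25A37*, *HSP90AA1*, *KRT19* and *HHLA2*. *SLC25A37* encodes mitoferrin-1, the carrier that brings iron into the mitochondrion for haem synthesis. In lung it ranged over 19.2, 37.9 and 74.4 FPKM (lowest, median and highest of 6 libraries) at 3300 m and over 5.92, 12.3 and 25.4 FPKM at 670 m. In liver it had 8.78, 11.4 and 14.8 FPKM at 3300 m against 3.57, 5.09 and 7.17 FPKM at 670 m. The groups were separate in liver, as they were for 16.6% of all genes tested, and overlapped in lung through LC 2 at 25.4 FPKM. In brain the values were 1.71, 2.55 and 3.96 FPKM at 3300 m against 0.676, 1.49 and 1.83 FPKM at 670 m, and in heart 0.529, 7.01 and 21.5 FPKM at 3300 m against 1.56, 2.17 and 9.31 FPKM at 670 m. Brain groups overlapped at their edges and heart groups widely. The 4-tissue difference was 1.05 ± 0.17 on the log2(FPKM + 1) scale (SE, adjusted p = 5.96e-05), and all 8 differences by tissue and chicken type were positive. Red cell markers could not be read beside it, since none of the 21 listed had a symbol here.

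*HSP90AA1*, the stress-inducible cytosolic chaperone, was the third largest increase with a symbol. Lung held 618, 1000.4 and 1137 FPKM (lowest, median and highest) at 3300 m against 258, 355 and 576 FPKM at 670 m, so that every lung at 3300 m was above every lung at 670 m, which held in 1 direction or the other for 4.81% of all genes tested. Heart held 461, 752 and 859 FPKM at 3300 m against 342, 386 and 638 FPKM at 670 m, and brain held 649, 858 and 1016 FPKM against 588, 662 and 721 FPKM. In both of these tissues the ranges overlapped. Liver, with 216, 367 and 821 FPKM at 3300 m against 90.9, 257 and 511 FPKM at 670 m, overlapped most. The gene rose by 0.76 ± 0.14 (adjusted p = 0.000185) over the 4 tissues, and past the threshold in lung by itself (adjusted p = 0.00199).

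*ATF3*, a transcription factor induced by many kinds of cell stress, rose by 1.06 ± 0.27 (adjusted p = 0.00494). In lung it had 10.4, 12.1 and 16.5 FPKM at 3300 m against 3.36, 4.61 and 6.35 FPKM at 670 m, with no overlap. In heart it spanned 5.12, 117 and 291 FPKM at 3300 m and 7.06, 14.7 and 165 FPKM at 670 m. A single library, LC 2, supplied the highest heart value at 670 m, where the next was 16.6 FPKM, and TC 2 the lowest at 3300 m. Brain differed little, with 1.59, 2.46 and 3.62 FPKM against 1.5, 2.34 and 2.83 FPKM and a difference of 0.09. Liver had 1.04, 2.06 and 12.5 FPKM at 3300 m, the highest in HLC 1, against 0.482, 0.63 and 1.59 FPKM at 670 m. Too few livers at 670 m reached an FPKM of 1 to meet the filter by themselves. *ATF3* thus had 1 sign in 4 tissues but a brain difference close to 0, and it no longer passed without liver or without lung. In the immediate early and stress list it was the 1 of 5 tested genes that passed, and *EGR1*, at 0.49, was not past the threshold (adjusted p = 0.158).

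**Figure D1:**
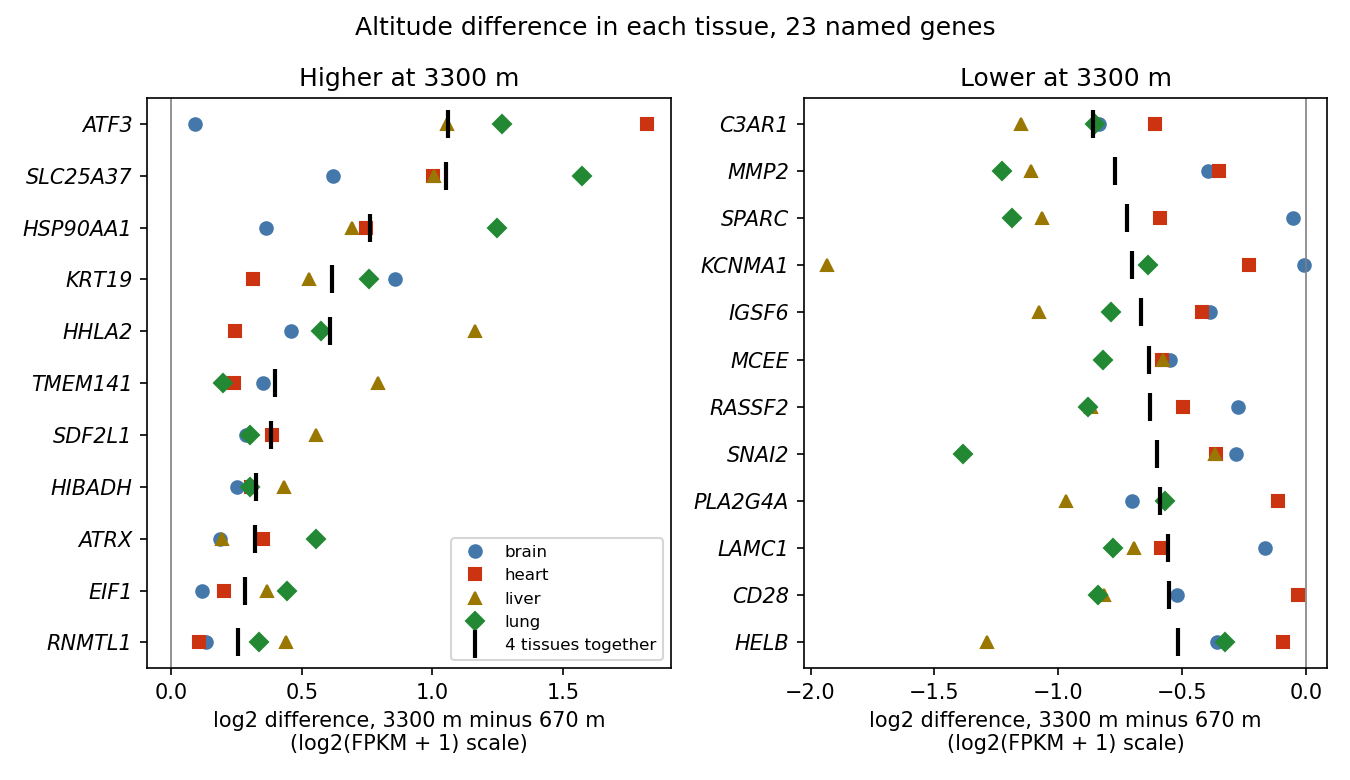
Altitude difference of 11 named shared genes with a large increase (left) and the 12 with the largest decrease (right), in log2(FPKM + 1) units, 3300 m minus 670 m. Coloured symbols are the 4 tissues and black strokes the 4-tissue fit; *KCNMA1* lies between -0.01 in brain and -1.93 in liver, whereas *MCEE* lies between -0.55 and -0.82.

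*KRT19*, a keratin of simple epithelia, had 35.4, 73.7 and 83.7 FPKM in lung at 3300 m against 20.6, 34.2 and 74.0 FPKM at 670 m. Brain had 3.41, 5.26 and 8.48 FPKM at 3300 m against 1.20, 2.81 and 3.74 FPKM at 670 m. Its groups overlapped in every tissue, and the 4-tissue difference was 0.61 ± 0.13 (adjusted p = 0.00101). *KRT19* is also a lung epithelium marker, and the summed markers of lung epithelium ranged over 93.1 to 171 FPKM in lung at 3300 m against 42.0 to 148 FPKM at 670 m. *KRT19* is itself in this sum of 8 markers, so the sum is no separate reading beside it. The part of epithelial cells in the difference was not tested. *HHLA2*, in human a B7-family ligand of lymphocytes, was highest in liver, with 13.6, 28.9 and 60.8 FPKM at 3300 m against 8.64, 11.7 and 14.5 FPKM at 670 m, and rose by 0.61 ± 0.12 (adjusted p = 0.000336).

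The other named genes that rose had smaller differences. *SDF2L1*, a chaperone partner in the endoplasmic reticulum, rose by 0.38, and its lung values of 17.2 to 24.2 FPKM at 3300 m did not overlap those of 15.0 to 16.8 FPKM at 670 m. *HIBADH*, an enzyme of valine breakdown, rose by 0.32 with tissue differences between 0.25 and 0.43. *ATRX*, a chromatin remodeller, rose by 0.32, and its lung values of 26.0 to 39.6 FPKM at 3300 m lay above those of 17.5 to 24.3 FPKM at 670 m. *TMEM141* rose by 0.40, *EIF1*, a factor of start codon choice, by 0.28, and *RNMTL1*, a methyltransferase of mitochondrial ribosomal RNA, by 0.25. *QRSL1* (0.24), *TMEM186* (0.23), *GAS8* (0.21) and *CCT5* (0.21), the last a subunit of the cytosolic chaperonin, had a positive difference in all 8 combinations of tissue and chicken type. In all, 78 of the 340 increased shared genes had this property, where 0.952% of all genes tested had it (3.13% in either direction). A gene with 1 sign in all 8 has 1 sign in the 4 tissues by construction, so nothing is read from this count.

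The 2 increased shared genes with the smallest p among those without a symbol were chosen by that rank. ENSGALG00000027959 was listed at 0 FPKM in most libraries at 670 m. In liver its values were 71.3, 146 and 267 FPKM in TC, 38.7, 17.6 and 71.3 FPKM in HLC, 0, 15.4 and 0 FPKM in LTC and 12.7, 0 and 0 FPKM in LC. In brain they were 7.69, 5.21 and 31.6 FPKM in TC, 39.8, 19.4 and 24.3 FPKM in HLC, 0, 22.1 and 0 FPKM in LTC and 0 in all 3 LC. Every library at 3300 m was above 0 in all 4 tissues, and at 670 m the library numbered 2 of LTC was above 0 in all 4 tissues, at 29.9 FPKM in heart and 30.6 FPKM in lung. In the lung the remaining 5 libraries at 670 m were listed at 0. The difference of 4.01 ± 0.45 (adjusted p = 5.29e-08) depends on the pseudocount and is no measure of fold. In brain, liver and lung too few libraries at 670 m were above 0 to meet the filter. The gene was therefore tested through its values at 3300 m, and nothing is read from its p or its rank. ENSGALG00000011715 had 428, 867 and 1265 FPKM in lung at 3300 m against 164, 340 and 661 FPKM at 670 m, and 47.1, 55.4 and 92.7 FPKM in liver against 17.9, 25.4 and 35.8 FPKM. Its groups were separate in liver, and it rose by 1.02 ± 0.14 (adjusted p = 3.10e-06).

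**Figure D2:**
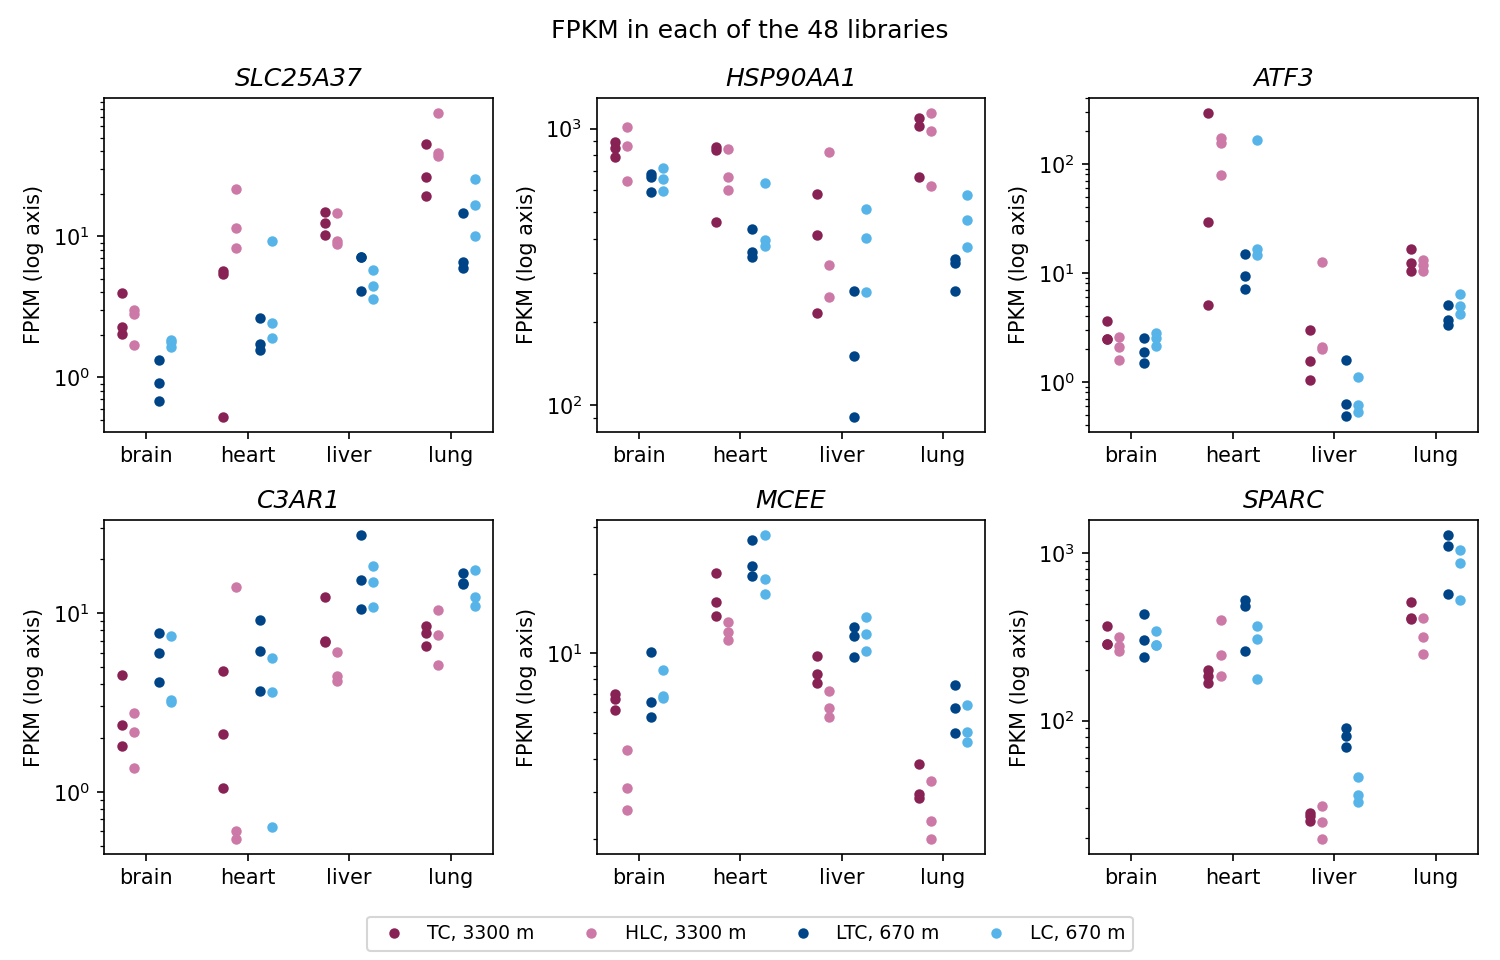
FPKM (log axis) of *SLC25A37*, *HSP90AA1*, *ATF3*, *C3AR1*, *MCEE* and *SPARC* in each of the 48 libraries, by tissue; each point is 1 library, with TC and HLC (3300 m) left of LTC and LC (670 m). The LC 2 heart, at 165 FPKM for *ATF3* and 9.31 FPKM for *SLC25A37*, lies among the hearts at 3300 m.

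The decreased shared genes were led by *C3AR1*, *MMP2*, *SPARC*, *KCNMA1*, *IGSF6* and *MCEE*. *C3AR1*, the receptor of the complement fragment C3a on myeloid cells, had 5.10, 7.62 and 10.5 FPKM in lung at 3300 m against 11.0, 14.6 and 17.3 FPKM at 670 m, with no overlap. In liver it had 4.15, 6.47 and 12.3 FPKM at 3300 m against 10.6, 15.1 and 27.2 FPKM at 670 m, and in brain 1.35, 2.26 and 4.53 FPKM against 3.17, 5.02 and 7.75 FPKM. Both overlapped by few libraries, whereas heart, at 0.546, 1.58 and 13.9 FPKM against 0.635, 4.64 and 9.14 FPKM, overlapped fully. The gene fell by 0.86 on the log2 scale (SE 0.17, adjusted p = 0.000588) with tissue differences between -0.61 and -1.15. *IGSF6*, an immunoglobulin superfamily receptor, fell by 0.67 (adjusted p = 7.23e-05), with 2.14, 2.77 and 5.24 FPKM in liver at 3300 m against 5.31, 8.55 and 8.83 FPKM at 670 m. In brain too few of its values at 3300 m reached an FPKM of 1 to meet the filter by themselves. The brain values of *IGSF6* are therefore no support for its decrease, and its p rests in part on them.

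*MCEE*, the methylmalonyl-CoA epimerase of propionate breakdown, had the most even decrease among the 12 largest. Lung had 2.0, 2.89 and 3.82 FPKM at 3300 m against 4.65, 5.64 and 7.59 FPKM at 670 m, and heart had 11.3, 13.5 and 20.04 FPKM against 16.8, 20.5 and 27.9 FPKM. Liver had 5.78, 7.49 and 9.77 FPKM at 3300 m against 9.73, 11.8 and 13.8 FPKM at 670 m, and brain 2.55, 5.204 and 7.05 FPKM against 5.74, 6.85 and 10.1 FPKM. The lung groups were separate, and those of liver overlapped by 1 library on each side. The differences were -0.82 in lung, -0.58 in both heart and liver and -0.55 in brain, and the 4-tissue value was -0.63 ± 0.07 (adjusted p = 1.27e-07). Its altitude difference did not vary between tissues past the threshold (adjusted p = 0.682).

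The extracellular matrix list had the largest number of decreased members of any list. The lists were written with earlier results of these data known, so their counts are descriptions. Of its 63 listed genes 14 were tested. Of these 14, 7 fell and none rose in the limma test over the 4 tissues. Their median was -0.35 against -0.06 over all genes tested, of which 14.9% fell. After quantile normalization 5 of the 14 fell, and without liver 4 fell. List members beyond the 4 with the smallest p in their list are named after their values were seen. *MMP2*, a gelatinase that cuts matrix collagens, had 0.465, 0.530 and 0.783 FPKM in liver at 3300 m against 1.44, 2.19 and 5.17 FPKM at 670 m, and 27.5, 33.9 and 61.2 FPKM in lung against 33.5, 100.2 and 135 FPKM. The liver groups were separate, the lung groups were not, and the gene fell by 0.77 (SE 0.12, adjusted p = 4.08e-05). In liver *MMP2* met the filter only through the libraries at 670 m, since all those at 3300 m were under 1 FPKM. Its liver separation is therefore no support for the decrease, and its p rests in part on liver. *SPARC*, a collagen-binding matrix glycoprotein, had 249, 407 and 511 FPKM in lung at 3300 m against 527, 955 and 1276 FPKM at 670 m, and 19.7, 26.1 and 31.0 FPKM in liver against 32.5, 57.7 and 90.4 FPKM. Both tissues were without overlap. In brain, at 259, 287 and 368 FPKM against 240, 293 and 432 FPKM, its difference was -0.05, and the altitude difference of *SPARC* varied between tissues (adjusted p = 0.0281). *LAMC1*, a laminin chain of basement membranes (-0.56), and *COL5A1*, a fibrillar collagen chain (-0.51), fell with 1 sign in 4 tissues, as did *ADAMTS2*, a procollagen protease (-0.36). *ITGA8* (-0.42), an integrin chain, and *SFRP2* (-0.37), a secreted Wnt antagonist, passed the test without having 1 sign in every tissue. In lowland chickens alone *MMP2*, *SPARC*, *LAMC1*, *COL5A1* and *ITGA8* no longer passed, whereas they did in Tibetan chickens alone. Each kept a negative difference in lowland chickens, so these passes by themselves show no difference between types. Tested directly in limma, the altitude difference of *MMP2* and *SPARC* did not vary between types past the threshold. That of *LAMC1* did, though not after quantile normalization.

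Some of the tested immune genes fell as well. Of 39 listed genes of interferon and innate immunity 13 were tested. Of these 13, 6 fell and none rose, with a median of -0.21, where 14.9% of all genes tested fell. When the tissues of a code and number were averaged, 2 of the 13 fell, *C3AR1* and *IFNAR2*. The 6 that fell over all 48 libraries were *C3AR1*, *IFNAR1* (-0.39), *IFNAR2* (-0.33), *TBK1* (-0.27), *TRADD* (-0.26) and *TRIM25* (-0.43). *IFNAR1* and *IFNAR2* are interferon receptor chains, *TBK1* a kinase, *TRADD* an adaptor and *TRIM25* a ubiquitin ligase. All 6 had 1 sign in 4 tissues, but liver differences of -0.56 to -1.15 were the largest for each, and without liver 1 of the 13 fell. Of 37 listed lymphocyte genes 9 were tested. Of these 9, 5 fell and none rose, with a median of -0.34, beside the same 14.9% of all genes. They were *CD28* (-0.55), a co-stimulatory receptor of T cells, *GPR183* (-0.39), an oxysterol receptor that guides B cells, *SASH3* (-0.47), *DOCK2* (-0.46) and *TNFRSF9* (-0.29). In brain *CD28* met the filter only through the libraries at 670 m. After quantile normalization 1 of the 9 fell, without liver also 1, and with averages over the tissues of a code and number 2. The summed FPKM of 21 lymphocyte genes, untested ones included, was 56.3 to 73.8 in liver at 3300 m against 75.4 to 120 at 670 m, 217 to 333 against 240 to 331 in lung, 38.5 to 50.1 against 43.5 to 63.4 in brain and 27.1 to 155 against 23.3 to 69.3 in heart. The liver ranges were separate and those of the other tissues overlapped. The sum holds the genes that fell, so it is no separate reading beside them. It was taken on values as deposited, where the median difference over all genes tested was -0.24 in liver. The part of cell numbers in these decreases was not tested.

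Several other decreased shared genes had roles outside these lists. *KCNMA1*, the pore subunit of the large-conductance calcium-activated potassium channel, had 1.82, 2.40 and 5.76 FPKM in liver at 3300 m against 8.95, 14.0 and 18.3 FPKM at 670 m, whereas brain was at 10.9 FPKM in the median at both altitudes. It counted as shared through a brain difference of -0.01, and its difference varied between tissues (adjusted p = 0.000536). *HELB*, a DNA helicase, likewise had its largest decrease in liver (-1.29) and varied between tissues (adjusted p = 0.00355). *SNAI2*, a repressor of epithelial genes, fell most in lung (-1.38), with 11.5, 12.3 and 21.9 FPKM at 3300 m against 15.7, 38.0 and 70.4 FPKM at 670 m and some overlap. In brain *SNAI2* met the filter only through the libraries at 670 m. In liver too few of its values at 3300 m reached an FPKM of 1 to meet the filter by themselves. *RASSF2* (-0.63) and *PLA2G4A*, the cytosolic phospholipase that releases arachidonic acid (-0.59), fell by similar amounts. Of the iron transporters, *SLC40A1*, the iron exporter ferroportin, fell by 0.49 (adjusted p = 0.0161) while *SLC25A37* rose. These were the only 2 tested genes of the iron list. The decrease of *SLC40A1* lay mostly in liver (-1.15) and lung (-0.64), with heart at -0.15 and brain at -0.02. Its difference varied between tissues by the F test (adjusted p = 0.0388). *SLC40A1* no longer passed when liver or lung was left out, nor in lowland chickens alone, whereas *SLC25A37* still passed in these settings.

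Decreases of the same sign in all 8 combinations of tissue and chicken type were seen in 180 of the 906 decreased shared genes. Of all genes tested, whether or not they passed, 2.18% had this property. Nothing is read from this count, for the reason given for the increases. Beyond those already described, the 180 included *SLC8B1* (-0.37), a mitochondrial sodium-calcium exchanger, *TFB1M* (-0.35), which methylates mitochondrial ribosomal RNA, *BCAS3* (-0.34), *CCDC93* (-0.33) and *TRIM13* (-0.33). The 2 decreased shared genes without a symbol and with the smallest p were ENSGALG00000006942 and ENSGALG00000004745. ENSGALG00000004745 had separate groups in 3 tissues, as did 0.0573% of all genes tested, at 2.26 to 3.16 FPKM at 3300 m against 3.36 to 5.36 FPKM at 670 m in brain, 1.38 to 2.99 against 3.23 to 4.44 FPKM in liver and 5.05 to 6.204 against 7.49 to 10.7 FPKM in lung. In heart, at 3.24 to 6.84 FPKM against 5.53 to 12 FPKM, it overlapped, and it fell by 0.60 (adjusted p = 3.21e-07). ENSGALG00000006942 had 7.90 to 13.5 FPKM in liver at 3300 m against 17.7 to 37.1 FPKM at 670 m and fell by 0.75 (adjusted p = 5.29e-08).

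Among the few genes tested from the lists of hypoxia and HIF targets, vascular signalling and the respiratory chain, no shared gene passed. The iron list, described above, is not counted here, and both of its tested genes were shared genes that passed. Only 5 of 42 listed hypoxia and HIF targets had a symbol and passed the filter. For vascular signalling it was 8 of 32 and for the respiratory chain 4 of 58. Most genes of these lists were therefore not tested. Of the 5 tested genes of the hypoxia and HIF target list none rose or fell at an adjusted p under 0.05 in limma, 2 were under an unadjusted 0.05 (as were 3022 of the 8720 genes tested, or 34.7%), the median was -0.09, and none had 1 sign in 4 tissues. *PDK1*, the kinase that closes pyruvate dehydrogenase, was at -0.24 (adjusted p = 0.0543), *ADORA2B*, an adenosine receptor, at -0.22 (adjusted p = 0.0904) and *STC2* at 0.25 (adjusted p = 0.391). None of 8 vascular signalling genes and none of 4 respiratory chain genes passed either, with 1 and 0 under an unadjusted 0.05. No gene of the glycolysis or circadian list was tested with a symbol, so these programmes were not analysed here. Of 22 mitochondrial genes of ribosome, import and carriers 2 rose and 2 fell, of 15 genes of the endoplasmic reticulum 2 rose and 3 fell, of 41 chromatin and splicing genes 1 rose and 5 fell, and of 40 ubiquitin and autophagy genes 3 rose and 5 fell. Of all genes tested 5.31% rose and 14.9% fell, and the decreased shares of the chromatin and ubiquitin lists were below the 14.9%. The heat shock list had 2 increased and no decreased genes among 5 tested.

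The size of the shared differences was not equal between tissues. Among the 340 increased shared genes the median difference was 0.46 in liver, 0.37 in lung, 0.24 in brain and 0.22 in heart. Among the 906 decreased ones it was -0.55 in liver, -0.33 in lung, -0.20 in heart and -0.17 in brain. Over all genes tested the medians were -0.24 in liver, -0.03 in lung, -0.02 in heart and 0.03 in brain. The difference was largest in liver for 175 increased and 617 decreased shared genes and largest in lung for 116 and 208. The matching shares over all genes were not counted, so nothing particular to the shared genes is read from this. Tested within 1 tissue, 52.7% of all genes passed in liver, 17.3% in lung, 0.917% in brain and 0.0115% in heart. Of the 1246 shared genes that passed, 10 passed in 3 tissues alone, 424 in 2, 674 in 1 and 138 in none, and none passed in heart by itself, where 179 (14.4%) were under an unadjusted 0.05, as were 425 (4.87%) of the 8720 genes tested. The shared genes that passed were chosen by sign and by test in these same libraries. Nothing is therefore read from this pair of shares or from the counts by number of tissues. The same holds for the counts of shared genes set beside shares of all genes in the rest of this paragraph. Within liver 200 increased and 745 decreased shared genes passed, where 9.89% of all genes were higher and 42.9% lower past the threshold. Within lung 155 and 435 passed, against 6.54% and 10.7% of all genes, and within brain 7 and 10, against 0.78% and 0.138%. Separate groups in 2 tissues were seen for 10 increased and 67 decreased shared genes and in 3 tissues for 3 decreased ones, against 1.4% of all genes for 2 or more tissues in the same direction. No gene had them in all 4 tissues, and in brain and heart they were seen for 1.92% and 0.172% of all genes tested. The test of a varying altitude difference between tissues passed for 49 of the increased and 156 of the decreased shared genes, 14.4% and 17.2%, against 21.6% of all genes. Without liver it passed for 26 genes of all.

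The common sign often rested on small differences. In 326 of the 1246 shared genes that passed, the smallest of the 4 tissue differences was under 0.05 in size, and in 276 it was at least 0.2 (90 higher and 186 lower). Just outside the rule, 473 genes passed the 4-tissue test with 1 tissue of the other sign, and for 196 of them that tissue differed by less than 0.05. One gene whose tissues disagreed was *PANK1*, which starts coenzyme A synthesis, had 32.2, 69.5 and 105 FPKM in liver at 3300 m against 170, 226 and 389 FPKM at 670 m. Its groups were separate in liver, and its differences of 0.02 in brain, -0.01 in heart and 0.20 in lung were not past the threshold. It passed the 4-tissue test without being a shared gene, and without liver its difference was 0.073.

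The direction was next read in a tissue that had not chosen the gene. Genes were taken as past the threshold and of 1 sign in 3 tissues, and their sign was counted in the fourth. For lung, 84.9% of 159 increased and 91.6% of 431 decreased genes had the same sign, against 44.9% and 55.1% of all genes tested. For liver it was 59.9% of 227 and 91.6% of 262, against 27.4% and 72.6%. For brain it was 83.3% of 336 and 62.4% of 1291, against 58.1% and 41.9%, and for heart 67.3% of 548 and 72.2% of 1441, against 46.1% and 53.9%. In each of the 8 cases the share exceeded that of all genes, and it did so too after quantile normalization, at 67.3% to 90.6% against 47.1% to 52.9%. The tissues were not independent of each other, however, so the fourth tissue is no separate test of the sign. The deviations of a library from its group mean correlated with those of the library of the same code and number in another tissue in 69 of 72 pairs (median 0.195), and the best match of a library in another tissue of its code carried its own number in 128 of 144 comparisons. The labels do not say whether the 4 tissues of a number came from 1 bird, and the fit over 48 libraries took them as separate.

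**Figure D3:**
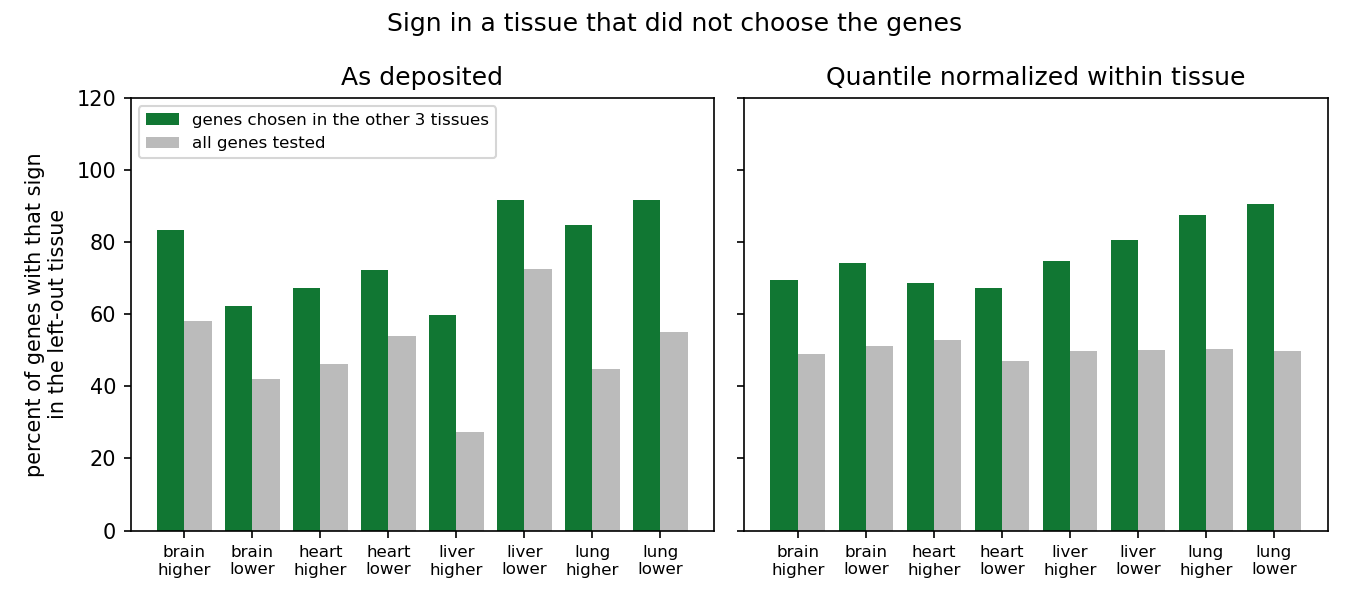
Percent of genes with the stated sign in the tissue left out, for genes chosen in the other 3 tissues (green) and for all genes tested (grey), in values as deposited (left) and after quantile normalization within tissue (right). The green bars are the higher ones in all 8 cases on both sides, from 59.9% for increased genes in liver to 91.6% for decreased genes in lung and liver.

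When the 4 tissues of a code and number were averaged first, leaving 12 values, 785 genes passed (9%), against 1760 (20.2%) over 48 libraries. The 785 included 170 of the 340 increased and 391 of the 906 decreased shared genes. *SLC25A37* (adjusted p = 0.00224), *ATF3* (0.00798), *KRT19* (0.00808), *HSP90AA1* (0.0173), *MCEE* (0.00609), *MMP2* (0.00717), *SPARC* (0.0105) and *C3AR1* (0.0126) passed, whereas *TMEM141* (0.0630), *RNMTL1* (0.0781) and *IFNAR1* (0.0555) did not. Scaling weighed on the balance of directions. Quantile normalization within each tissue, which removes differences in the distribution of values such as the lower median in liver, gave 654 increased and 631 decreased shared genes that passed, in place of 340 and 906. Of the 340, 330 passed after it, and of the 906, 602, with no change of sign in any of the 1246. Upper quartile scaling gave 549 and 684. The excess of decreased shared genes was thus not seen after quantile normalization.

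**Figure D4:**
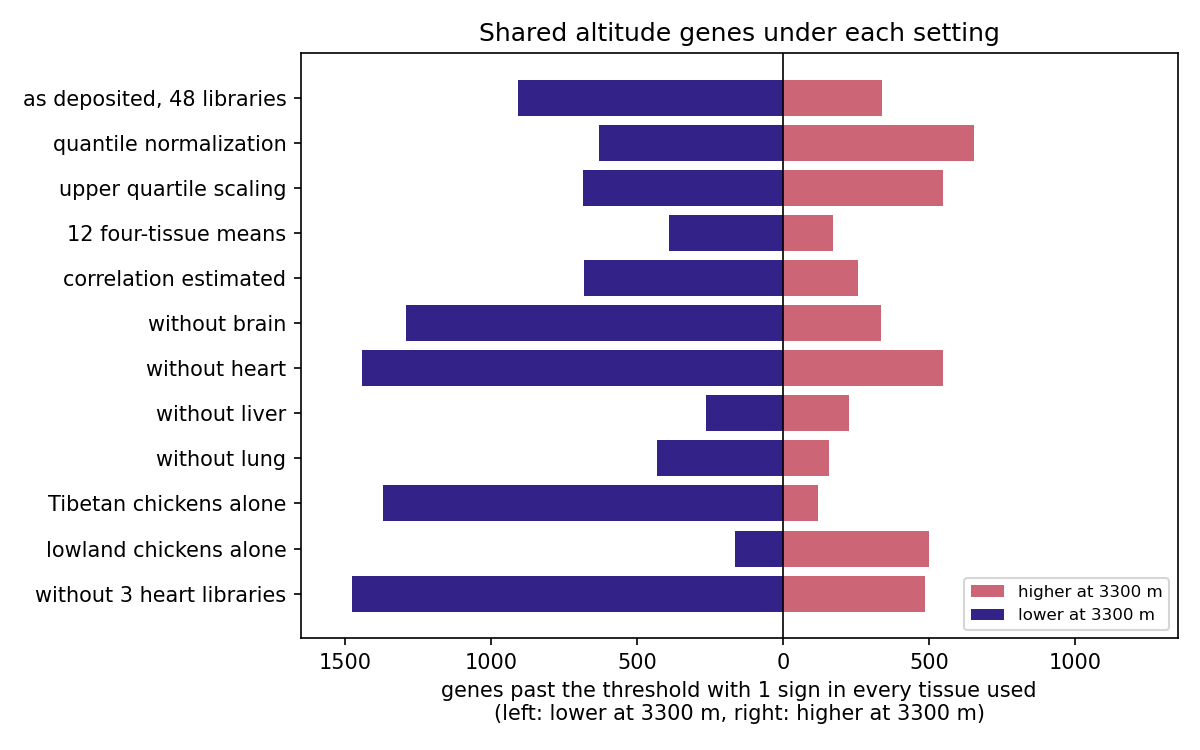
Number of genes past the threshold with 1 sign in every tissue used, lower (left, blue) and higher (right, red) at 3300 m, under 12 settings. As deposited 906 are lower and 340 higher, and after quantile normalization 631 are lower and 654 higher. Tibetan chickens alone give 1369 lower and 121 higher, and lowland chickens alone 165 lower and 500 higher.

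The 2 chicken types contributed unequally. In Tibetan chickens alone, TC against LTC, 108 of the 340 increased and 711 of the 906 decreased shared genes passed, against 2.11% and 22.1% of all genes. In lowland chickens alone, HLC against LC, 213 and 139 passed, against 6.33% and 2.27%. The same libraries chose the shared genes, so nothing is read from these counts beside the shares of all genes. Both types passed for 47 increased and 67 decreased shared genes, *SLC25A37*, *KRT19*, *ATF3*, *MCEE* and *IGSF6* among them. How many of all genes passed in both types was not counted. Since the same libraries chose the shared genes, nothing is read from the 47 and 67 or from the genes named. The counts of genes within each type moved with scaling. After quantile normalization 635 genes rose and 583 fell in Tibetan chickens, and 424 rose and 377 fell in lowland chickens. Tested as an interaction, the altitude difference varied between types in 32 increased and 115 decreased shared genes, 9.41% and 12.7%, against 9.93% of all genes. Of the 866 genes of all those tested that passed, the signed altitude difference of Tibetan chickens exceeded that of lowland chickens for 62 and was below it for 804, and after quantile normalization for 207 and 142 of 349.

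Of the 33 named shared genes plotted by type, 4 varied between types. *ATRX* rose by 0.52 in Tibetan chickens and was at 0.12 in lowland chickens (difference 0.40 ± 0.12, adjusted p = 0.0282). *MCEE* fell by 0.42 in Tibetan and by 0.84 in lowland chickens (difference 0.42 ± 0.14, adjusted p = 0.0443). *SDF2L1* was at 0.10 in Tibetan chickens and rose by 0.67 in lowland chickens (difference -0.57, adjusted p = 0.0215), and *LAMC1* fell by 0.98 in Tibetan chickens and was at -0.14 in lowland chickens (difference -0.84, adjusted p = 0.0392). The interaction passed after quantile normalization for *ATRX* (adjusted p = 0.00294) and *MCEE* (adjusted p = 0.0218), not for *SDF2L1* (adjusted p = 0.184) or *LAMC1* (adjusted p = 0.127). The smallest p of this test among genes with a symbol belonged to *TOMM20*, a receptor of the mitochondrial import pore and a shared gene short of the 4-tissue threshold (adjusted p = 0.0501), which fell by 0.48 in Tibetan chickens and was at 0.13 in lowland chickens (difference -0.61 ± 0.10, adjusted p = 0.000111). *HSP90AA1*, at 1.03 in Tibetan and 0.49 in lowland chickens, showed no interaction past the threshold (adjusted p = 0.170).

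**Figure D5:**
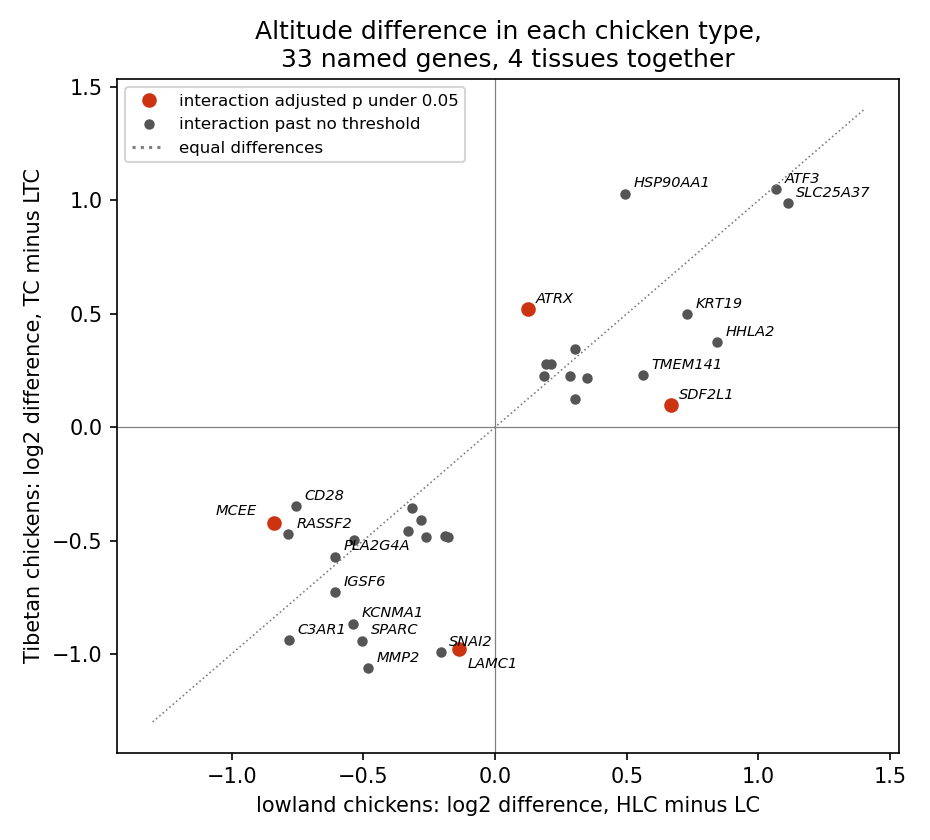
Altitude difference of 33 named shared genes in Tibetan chickens (TC minus LTC, vertical) and in lowland chickens (HLC minus LC, horizontal), 4 tissues together, in log2(FPKM + 1) units; the dotted line marks equal differences. Red points passed the interaction test, among them *ATRX* (0.52 and 0.12) and *LAMC1* (-0.98 and -0.14), and all 33 genes have 1 sign in both types.

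Chicken type was tested in the same fit as altitude, with the same libraries and the same residual spread. The shares of genes that differed by type therefore describe the shared genes and are no separate support for them. Over both altitudes and 4 tissues, 31 of the 340 increased shared genes (9.12%) and 34 of the 906 decreased ones (3.75%) differed between Tibetan and lowland chickens, against 2.56% of all genes tested. Of the 31, 27 were lower and 4 higher in Tibetan chickens, and of the 34, 3 were lower and 31 higher. *MMP2* (0.46, adjusted p = 0.0369) and *MCEE* (0.26, adjusted p = 0.0456) were among the decreased genes that were higher in Tibetan chickens. The shared genes also differed in their level. The median FPKM of the increased genes was 18.6 (brain), 16.3 (heart), 14.2 (liver) and 23.0 (lung), and that of the decreased genes 6.45, 4.90, 5.31 and 11.3 in the same order of tissues. Over all genes tested it was 10.2, 7.43, 6.4 and 13.4, between the increased and the decreased genes in each tissue.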

How the data were processed

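Total RNA of brain, heart, liver and lung was sequenced from TruSeq libraries, and the deposited values are FPKM that the authors made per gene; galGal4, Cufflinks 2.2.1 and TopHat appear in the submitters' notes, with no word on the role of each. No counts were used here, so a count test, depths and counting intervals could not be given. Values were analysed as log2(FPKM + 1) in limma 3.58.1 (R 4.3.3, trend, 2-sided, Benjamini-Hochberg over the 8720 genes tested, threshold 0.05), and the code was tested on simulated data. A fold change on this scale understates that of low genes. The 4-tissue fit had tissue and chicken type as blocks. Fits within a tissue used 1 mean per group. The tissue interaction was an F test and the type interaction 1 coefficient. Symbols came from ID and symbol pairs in the study's supplementary table and covered 1181 of the 17108 genes (6.9%). The paper describes that table as its lists of genes under positive selection in chicken breeds. Named genes and list counts are therefore limited to genes of those lists. Named genes were the 12 with the largest difference in each direction, up to 6 in each direction with 1 sign in 8 differences, those with the smallest interaction p, up to 4 for each list, and 2 without a symbol in each direction, and 3 of the genes so chosen are not reported here. The members and lists were chosen with earlier results of these data known. Alternatives were other scalings, filters and pseudocounts, averages or an estimated correlation within a code and number, a block for the replicate number, and each tissue, chicken type or library left out. No 2 libraries of a group were duplicates (highest correlation 0.98658).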

Additional observations from a re-analysis of the deposited data

Results flagged for a closer look

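Of 96 groups of 6 libraries examined for 12 genes, 7 had a library farther from the rest than Dixon's critical value allows, and chance gives about 1 in 20. *ATF3* had 164.6 FPKM in heart LC 2, against 7.056 to 16.56 FPKM in the other hearts at 670 m, and 12.54 FPKM in liver HLC 1, against 1.035 to 3.017 FPKM in the other livers at 3300 m. *SLC25A37* had 9.306 FPKM in heart LC 2, against 1.561 to 2.647 FPKM. *IGSF6* had 5.307 FPKM in liver LTC 1, against 7.335 to 8.833 FPKM. ENSGALG00000027959 had 22.14 FPKM in brain LTC 2 and 30.6 FPKM in lung LTC 2, where the others at 670 m were listed at 0. ENSGALG00000011715 had 92.68 FPKM in liver TC 3, against 47.07 to 58 FPKM. Heart LC 2 was the highest heart at 670 m for 121 of the 340 increased shared genes (35.6%), against 13.1% of all genes, and the lowest for 479 of the 906 decreased ones (52.9%), against 27%. Heart TC 2 was the lowest heart at 3300 m for 167 of the 340 (49.1%), against 41.4% of all genes, and the highest for 201 of the 906 (22.2%), against 13.7%. The shared genes were chosen by sign and by test with these same hearts, so nothing is read from these shares.

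Genes named by rank were screened here, not those named only through a list. Among them the altitude difference varied between tissues by the F test in limma for the shared genes *SPARC* (adjusted p = 0.0281), *KCNMA1* (adjusted p = 0.000536), *HELB* (adjusted p = 0.00355), *CCDC93* (adjusted p = 0.0112) and ENSGALG00000006942 (adjusted p = 0.00212). Among genes whose tissues differed in sign it varied for *PANK1* (adjusted p = 1.22e-12), *RSU1* (adjusted p = 3.79e-06), *GBE1* (adjusted p = 7.26e-06) and *SUPT3H* (adjusted p = 9.37e-06). Of the shared genes named only through a list, *IFNAR2* (adjusted p = 0.00408) and *SLC40A1* (adjusted p = 0.0388) also varied by this test.

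In the same screened genes, the altitude difference of Tibetan minus that of lowland chickens, on the log2 scale, was past the interaction threshold for *SDF2L1* (-0.5714), *ATRX* (0.396), *MCEE* (0.4174), *LAMC1* (-0.8405), *TOMM20* (-0.6054), *TBCE* (-0.453), *TSPAN12* (-0.5102) and ENSGALG00000004745 (-0.4603). After quantile normalization *ATRX*, *MCEE*, *TOMM20* and *TSPAN12* (adjusted p = 0.0175) remained past it, and *TBCE* (adjusted p = 0.270) and ENSGALG00000004745 (adjusted p = 0.281) did not.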

How the results depend on the processing

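Counts are given as all genes past the 4-tissue threshold (1760, with 463 higher and 1297 lower), then shared genes past it (340 higher and 906 lower). Quantile normalization gave 944 higher, with 654 shared, and upper quartile scaling 785 higher, with 549 shared. A mean FPKM of at least 5 in every tissue gave 732 (303 higher, 429 lower), with 906 of 1 sign and 225 and 283 shared, and no filter gave 3398 of 1 sign. An estimated correlation within a code and number gave 1152 (843 lower), and averages over the tissues of a code and number gave 785 (234 higher, 551 lower) with 171 and 391 shared, or, after quantile normalization, 935 (471 lower) with 337 shared lower. Without liver 505 passed (236 higher, 269 lower) with 262 shared lower, and without lung 688 (183 higher, 505 lower) with 159 and 431 shared. Without heart 548 and 1441 were shared. Over 3 tissues 3323 (without brain), 3156 (without heart) and 3376 (without liver) genes had 1 sign. Tibetan chickens alone gave 184 higher, with 121 and 1369 shared, and lowland chickens alone 750 (198 lower) with 165 shared lower. Without the 3 hearts that stood apart, a choice made after seeing the data, 2948 passed (2273 lower) with 1476 shared lower, and without lung HLC 3 as well 2939 (2278 lower) with 1479.

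The type interaction passed for 349 genes (signed difference higher in Tibetan chickens for 207, lower for 142) after quantile normalization and for 407 (32 higher, 375 lower) with the estimated correlation, against 866 (62 higher, 804 lower) as deposited. The tissue interaction passed for 26 genes without liver, against 1883. Within brain 127 and within heart 2 genes passed after quantile normalization. With the replicate number as a block 0 genes passed in brain and heart, against 80 and 1, and 1748 in the 4-tissue fit. The labels do not say what a number shares, and all 3 correlations between same-numbered libraries of a pair of groups exceeded 0.1 in 1 of 24 pairs. In the tissue left out, after quantile normalization, the same sign was seen for 69.6% (brain higher), 74.1% (brain lower), 67.3% (heart lower), 74.8% (liver higher) and 80.7% (liver lower). Without liver *PANK1* was at 0.073, of the opposite sign, as was *MYH15* at -0.059 in lowland chickens alone. The causes were not tested.

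Leaving out 1 library gave 1474 to 2309 genes past the 4-tissue threshold, 289 to 447 shared higher and 703 to 1250 shared lower, all within 1.5 times. Brain gave 1 (without LC 3) to 292 (without HLC 3) genes, heart 0 to 3 and lung 888 (without LTC 2) to 1663. Of 62 named genes, *GAS8* and *PANK1* lost their call in such fits, 35 did so without liver and 43 in lowland chickens alone (1 each by a change of sign), 26 without lung, 17 with averages over tissues and 14 in Tibetan chickens alone. Without counts, the precision of low FPKM is unknown.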
